A study of Ovis aries with 12 samples.

Results

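The oviduct isthmus of FecB BB ewes was compared between the follicular phase (MF) and the luteal phase (ML). MF and ML each held 3 libraries, 1 per ewe, and these 6 of the 12 libraries of the series were chosen by their labelled genotype and phase. All 63643 transcripts of the expression table were read in them, of which 43674 were listed as mRNAs and 19969 as lncRNAs. All ewes were Small-Tailed Han sheep of 2.5 ± 0.5 years, and BB means that both copies of FecB, the BMPR1B gene, carry the fecundity allele. Every ewe, in both phases, had first received a vaginal device (CIDR) with 300 mg of progesterone for 12 days. MF ewes were sampled 45 to 48 h after its removal, and ML ewes on day 9 after removal. The other 6 libraries came from FecB ++ ewes in the same phases (wF and wL, 3 each) and are given for context only. The labels name the tissue as oviduct, and the isthmus comes from the study's methods. The cycle of these ewes was synchronized with a drug device, which limits them as a model of the natural cycle.

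The isthmus is the narrow part of the oviduct next to the uterus, with a thick coat of smooth muscle around a folded epithelium of ciliated and secretory cells. It holds sperm before ovulation and delays the embryo on its way to the uterus. Estrogen from the growing follicle dominates the follicular phase, and progesterone from the corpus luteum dominates the luteal phase. In many mammals, estrogen drives division and secretion of the oviduct epithelium, and progesterone opposes both.

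Expression was given as FPKM (the number of fragments scaled to the length of the transcript and to the size of the library). The FPKM of a library summed to 423993 to 456531 in MF and to 349733 to 371526 in ML. The number of fragments behind each value is not known from the table, so no interval for counting error can be given. Transcripts of mitochondrial genes took 0.372 to 0.450% of the sum in MF and 0.691 to 1.26% in ML. These measures differed with the phase, and their part in the results below was not tested. The median log10(FPKM + 1) of mRNA transcripts above 0.1 FPKM was 0.503 ± 0.00505 (SD, n = 3) in MF and 0.528 ± 0.0138 (SD, n = 3) in ML. Every MF library lay below every ML library, and the exact permutation test gave p = 0.1 (two-sided), the smallest p that 3 against 3 allows. For lncRNA transcripts the medians were 0.128 ± 0.0231 and 0.139 ± 0.0311 (SD, n = 3), and the groups overlapped (exact permutation p = 0.5).

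ML replicates 2 and 3 (ML2 and ML3) stood apart from ML1 in the makeup of the tissue. The mean log2(FPKM + 0.1) of 42 genes of ciliated cells was 4.31, 4.45 and 3.78 in MF1 to MF3, 4.11 in ML1, 2.76 in ML2 and -1.06 in ML3. Of these 42 genes, 33 were lower in both ML2 and ML3 than in every MF library, and 23 had ML1 inside the MF range. For 14 genes of the secretory epithelium the mean was 5.69 to 5.86 in MF, 5.43 in ML1, 3.97 in ML2 and 2.31 in ML3. The 16 smooth muscle genes ran the other way, with 4.27 to 5.56 in MF, 5.27 in ML1, 6.60 in ML2 and 7.28 in ML3. Markers of cilia, epithelium and muscle were found in all 6 libraries, but 14 of the 42 ciliated genes were under 0.1 FPKM in ML3, 5 of them at 0 (CFAP45, DEUP1, DNAH7, SPAG6 and SPEF2). SLPI, a secretory marker, was at 0 in ML1 and ML3. By the list means ML1 lay nearer to MF than ML2 and ML3, which held less epithelial and more muscle RNA. ML1 was not the same as MF, since only 5 of the 14 secretory genes had ML1 inside the MF range. HOXA10 and HOXA9, members of the gene cluster that patterns the reproductive tract along its length, also differed among the ML libraries. HOXA10 was at 1.05, 0 and 0.113 FPKM in MF1 to MF3 and at 0.134 in ML1, but at 50.3 in ML2 and 57.5 in ML3. HOXA9 was at 0.0652 to 0.587 FPKM in MF and 0.185 in ML1, against 32.7 in ML2 and 9.86 in ML3. The ++ ewes showed such differences within both phases. Their ciliated means were 4.02, 2.42 and 3.75 in wF1 to wF3 and 4.42, 2.998 and 4.39 in wL1 to wL3. Their smooth muscle means were 5.32, 7.03 and 5.77 in wF, and 4.87, 6.86 and 4.52 in wL. In these ewes HOXA10 was at 0.0808, 36.5 and 0.138 FPKM in wF, and at 0, 11.5 and 0.0158 in wL. Low ciliated and high muscle RNA were thus not confined to the luteal phase. In bulk tissue, fewer cells of a type and less RNA per cell cannot be told apart. Because phase and makeup moved together in ML2 and ML3, the main counts below are also given with ML1 alone.

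**Figure D1:**
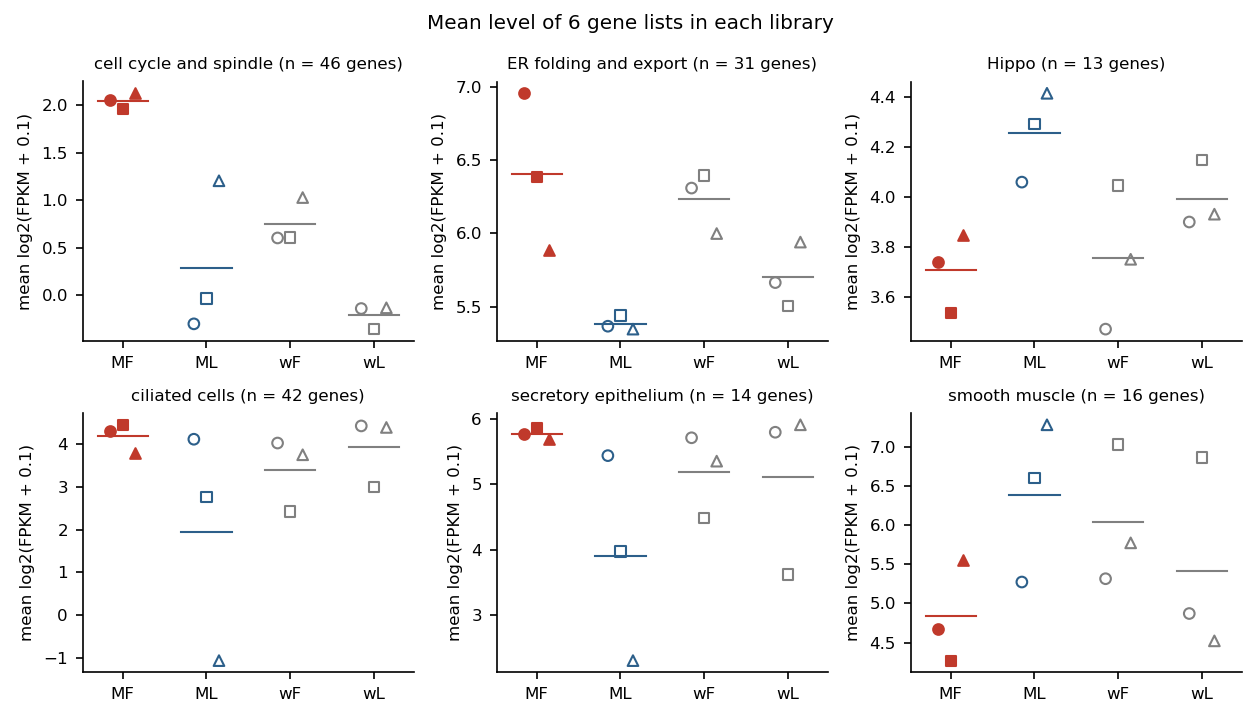
Mean log2(FPKM + 0.1) of the genes of 6 lists (y axis) in each library, by group (x axis). Circles, squares and triangles are replicates 1, 2 and 3, and lines are group means. ML2 and ML3 sit low for cilia and secretory epithelium and high for smooth muscle, while ML1 sits nearer to MF for these, and all 3 ML libraries sit below MF for the cell cycle and the endoplasmic reticulum (ER).

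Genes were tested with limma on log2(FPKM + 0.1) over the 6 libraries, and called at an adjusted p under 0.05 with a log2 change of 1 or more in either direction, the adjustment (Benjamini-Hochberg) running over every tested gene. Gene values add up the transcripts matched to 1 gene symbol. Of 8677 genes tested, 10 were called (0.115%), with 6 higher (0.0691%) and 4 lower (0.0461%) in MF. In 6 of the 10, every library of one phase was below 0.1 FPKM. An unadjusted p under 0.05 was reached by 1965 genes (22.6%). The count rested strongly on single libraries. It was 0 without MF1, 0 without MF2, 5 without MF3, 175 without ML1, 4 without ML2 and 58 without ML3. With the mean level of the smooth muscle list as a further term in the fit, it was 0. With ML1 as the only luteal library, 49 genes were called, 45 of them higher in MF. Since so few genes passed, a second description is used below, with no test. A gene is said to be apart when the lowest library of one phase lay above the highest of the other and the mean log2 difference was at least 1. In MF, 538 genes were apart and higher (6.2%) and 485 were apart and lower (5.59%). The median log2 difference over all tested genes was 0.06. Scaling the libraries to equal sums moved it to -0.22 and turned the split to 301 higher and 920 lower.

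Genes of mitosis took 3 of the 6 calls higher in MF. KIF4A, a kinesin of the spindle midzone, rose in MF. Its FPKM was 2.68, 2.81 and 4.16 in MF1 to MF3, and it was listed at 0 in all 3 ML libraries (log2 change 5.02 ± 0.37 SE, limma adjusted p = 0.0149). BUB1, a kinase of the spindle checkpoint, also rose, with 2.20, 3.42 and 3.03 in MF and 0 in every ML library (log2 change 4.88 ± 0.37 SE, limma adjusted p = 0.0149). KIF18A, the kinesin that lines up chromosomes at metaphase, was at 2.08, 1.94 and 1.49 in MF and at 0, 0.0239 and 0.0303 in ML (log2 change 4.03 ± 0.37 SE, limma adjusted p = 0.0303). The groups did not overlap for any of these. Each of the 3 sums rests on 1 paired transcript, so other transcripts of these genes may have been present. In the ++ ewes KIF4A reached 0.838 FPKM in wF and was 0 in wL, and BUB1 was at most 0.0583 in wF.

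Other genes of the cell cycle and spindle list lay in the same direction. Of its 46 tested genes, 28 were apart and higher in MF (60.9%, against 6.2% of all genes), and none was apart and lower. Only KIF4A, BUB1 and KIF18A were called, and 28 of the 46 had an unadjusted p under 0.05, against 22.6% of all genes. The median log2 difference of the list was 1.68, and that of all genes 0.06. PRC1, which bundles the midzone microtubules, was at 7.28, 7.10 and 8.56 FPKM in MF and at 0.790, 0.721 and 1.71 in ML (log2 difference 2.81, limma adjusted p = 0.0792). The PRC1 transcript XM_015101892.1 was called on its own, with 2.28, 4.10 and 5.16 in MF and 0 in ML (limma adjusted p = 0.0434). KIF2C, which removes faulty attachments of microtubules to kinetochores, was at 3.07, 2.68 and 2.76 in MF and at 0.0940, 0 and 1.32 in ML (limma adjusted p = 0.153).

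A few further members, chosen after their values were seen, show the range. CDK1, the kinase that starts mitosis, was at 14.9, 18.7 and 18.5 FPKM in MF and at 3.47, 5.51 and 6.75 in ML. MAD2L1, a checkpoint protein, was at 15.5, 15.5 and 15.2 in MF and at 4.75, 6.85 and 4.29 in ML, a 2.91-fold difference of means. TOP2A, which untangles chromosomes, was at 18.1, 17.6 and 24.3 in MF and at 1.32, 1.95 and 12.0 in ML. All 3 were without overlap, and none passed the test. Parts of the DNA replication helicase did not follow. MCM6 was at 21.6, 19.3 and 20.7 FPKM in MF and at 18.3, 21.0 and 23.6 in ML (log2 difference -0.02, limma adjusted p = 0.939), and MCM3 had a difference of 0.31 (limma adjusted p = 0.535). For both, the groups overlapped.

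ML3, not ML1, was the luteal library closest to MF in mitotic RNA. It was the highest ML library for 23 of the 28 genes that were apart. The list mean was 1.96 to 2.13 in MF, -0.30 in ML1, -0.04 in ML2 and 1.21 in ML3. Against ML1 alone, whose epithelial genes were near the MF level, 35 of the 46 genes were apart and higher in MF (76.1%, against 8.99% of all genes), with a median of 2.42. Of the other ewes, the list mean ran from 0.60 to 1.03 in wF and from -0.36 to -0.13 in wL, and each MF library lay above each wF library. The list count was 21 after scaling to equal sums (45.7%, against 3.47% of all genes), with a list median of 1.39 against -0.22 for all genes.

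**Figure D2:**
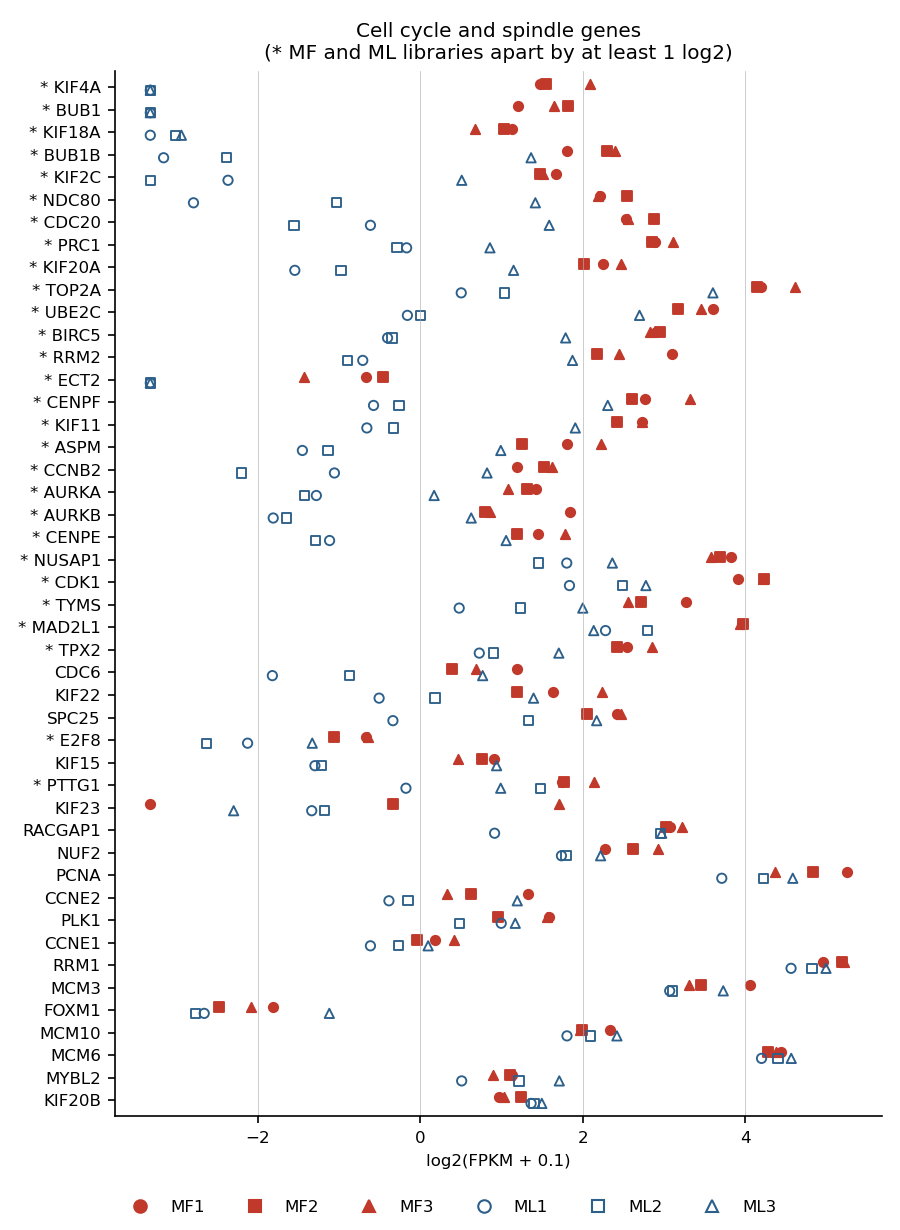
Log2(FPKM + 0.1) (x axis) of the 46 tested cell cycle and spindle genes (y axis, sorted by the difference) in the 3 MF libraries (filled) and the 3 ML libraries (open). A star marks the 28 genes apart, all higher in MF, and for most of them ML3 is the ML library nearest to MF.

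Genes of protein folding in the ER and of export from it made the second group. Secreted proteins enter the ER through the translocon, are folded by chaperones and disulfide isomerases, and leave for the Golgi. Of 31 tested genes, 15 were apart and higher in MF (48.4%, against 6.2% of all genes), none was apart and lower, and 29 had a positive difference. None was called, and 22 of the 31 had an unadjusted p under 0.05, against 22.6% of all genes. The list median was 0.99. The count rested in part on MF1. It was 9 without MF1 (29.0%, against 6.51% of all genes), with a median of 0.65, and 18 without MF3 (58.1%, against 10.2%). PDIA5, a disulfide isomerase, was at 46.2, 39.1 and 22.7 FPKM in MF and at 6.17, 5.82 and 7.03 in ML (log2 difference 2.43 ± 0.29 SE, limma adjusted p = 0.0633). SSR2, a subunit of the translocon-associated complex, was at 273, 258 and 192 in MF and at 97.9, 125 and 115 in ML (limma adjusted p = 0.113). KDELR3, a receptor that returns escaped chaperones, was at 65.3, 44.8 and 40.3 in MF and at 26.8, 19.5 and 20.02 in ML. SRP14, part of the particle that brings ribosomes to the ER, was at 126, 101 and 76.1 in MF and at 41.6, 54.7 and 39.4 in ML. The groups stayed apart for each of these.

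The large chaperones carried the greatest amounts. HSPA5, the main ER chaperone and a member chosen after its values were seen, was at 808, 431 and 216 FPKM in MF and at 113, 134 and 114 in ML. CALR (calreticulin), chosen in the same way, was at 1158, 560 and 399 in MF and at 177, 241 and 199 in ML. The 3 ML libraries lay close together, and the MF libraries spread widely. MF1 was the highest and MF3 the lowest library for all 15 genes that were apart. The list mean was 6.96, 6.39 and 5.88 in MF1 to MF3 and 5.35 to 5.44 in ML. MF3 was also the MF library with the most smooth muscle RNA, and its part in this spread was not tested. Against ML1 alone 16 genes were apart and higher (51.6%, against 8.99% of all genes). After scaling to equal sums 9 were apart and higher (29.0%, against 3.47%), and the list median was 0.70, against -0.22 for all genes. Among transcripts, SDF2L1 XM_015101449.1, an ER protein of the folding machinery, was called, with 77.8, 35.6 and 35.1 in MF and 1.94, 3.18 and 2.86 in ML (log2 change 4.09 ± 0.38 SE, limma adjusted p = 0.0386). This transcript was at 22.4 to 51.0 in wF and 3.55 to 8.004 in wL.

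**Figure D3:**
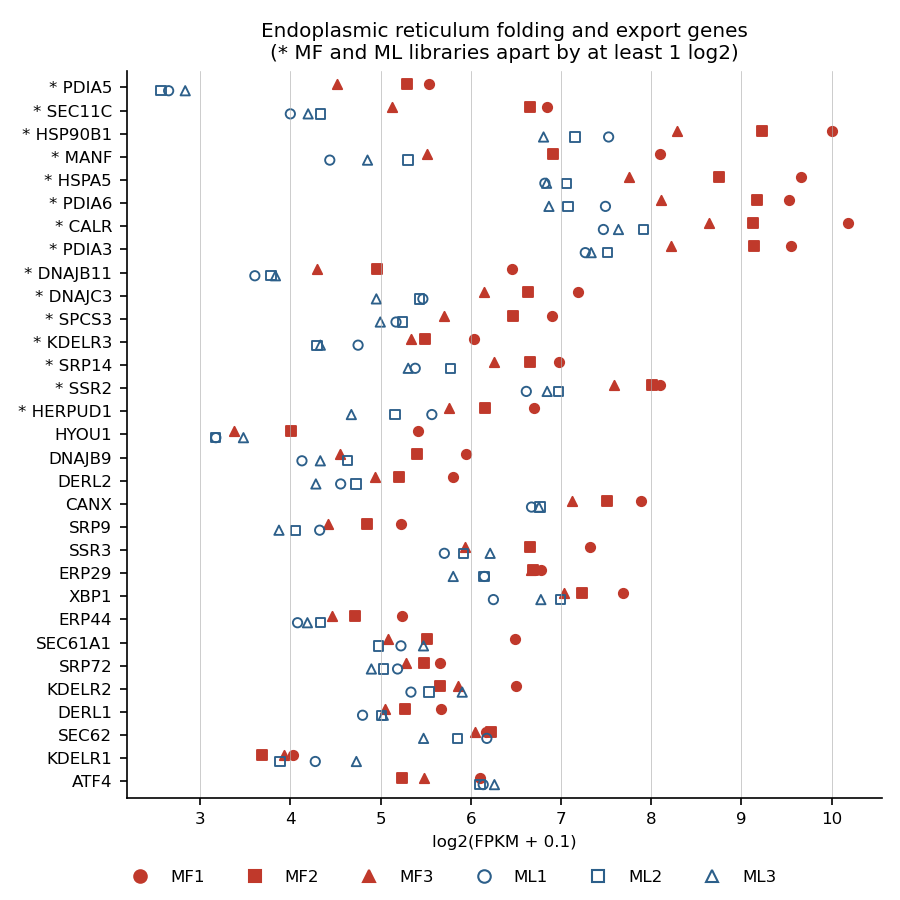
Log2(FPKM + 0.1) (x axis) of 31 genes of ER folding and export (y axis, sorted by the difference) in MF (filled) and ML (open). A star marks the 15 genes apart. The ML points cluster while MF1 lies to the right of MF3 in each starred gene.

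Outside these groups, TAC3 and CCDC167 also rose in MF. TAC3 encodes neurokinin B, a tachykinin peptide. It was at 12.9, 6.46 and 7.32 FPKM in MF and at 0.00543, 0.0857 and 0.0980 in ML (log2 change 5.77 ± 0.45 SE, limma adjusted p = 0.0149). It was the only one of the 10 called genes whose ++ libraries were also apart in the same direction, at 4.82 to 15.2 in wF and 0.0494 to 1.37 in wL. TACR1, a tachykinin receptor chosen after its values were seen, was at 14.6, 18.8 and 13.6 in MF and at 6.52, 8.06 and 0.0399 in ML (limma adjusted p = 0.291). TAC1, another tachykinin gene, went the other way, at 0, 0.0387 and 0.278 in MF and at 0.800, 1.08 and 0.164 in ML (limma adjusted p = 0.221). NMB and EDN1 also had negative log2 differences (-1.39 and -0.93). For TAC1, NMB and EDN1 the groups overlapped. TAC3 was the only called gene of the 22 neuropeptide and receptor genes tested, 2 of which were apart, both higher in MF (9.09%, against 6.2% of all genes). An unadjusted p under 0.05 was found for 3 of the 22 (1 higher, 2 lower), against 22.6% of all genes. CCDC167, a small coiled-coil protein, was at 37.1, 32.2 and 29.5 in MF and at 10.95, 10.9 and 9.83 in ML, a 3.12-fold difference of means (log2 change 1.63 ± 0.16 SE, limma adjusted p = 0.0373). SNX10, a sorting nexin of endosomes, was at 2.40, 3.90 and 4.70 in MF and at 0 in every ML library (limma adjusted p = 0.0149), but wF held between 0 and 5.56.

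Of the genes lower in MF, RHOBTB3 was the most abundant. It encodes an atypical ATPase with a role in transport between endosomes and Golgi. RHOBTB3 was at 51.2, 55.4 and 88.2 FPKM in MF and at 298, 313 and 308 in ML, 4.72-fold higher in the mean of ML (log2 change -2.28 ± 0.23 SE, limma adjusted p = 0.0422). The ML values differed by less than the MF values, and the value held in ML1 as in ML2 and ML3. In the ++ ewes it was at 69.5 to 85.6 in wF and 77.5 to 250 in wL. JADE1, OSBPL8 and KATNAL1 were also called lower. JADE1, a chromatin factor of a histone acetyltransferase complex, was at 0, 0.00855 and 0 in MF and at 13.2, 18.2 and 10.9 in ML (limma adjusted p = 0.00463). OSBPL8, a lipid transfer protein at membrane contacts, was at 0.275, 0.187 and 0.247 in MF and at 8.33, 14.3 and 22.1 in ML (limma adjusted p = 0.0149). The OSBPL8 sum rests on 1 paired transcript. JADE1 had 2, but its sum equalled the transcript XM_004017253.3 in every library. The patterns of JADE1 and OSBPL8 were not stable among the ++ ewes, where JADE1 ran from 0.0704 to 16.3 within wL and OSBPL8 from 0.218 to 13.1 within wF.

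**Figure D4:**
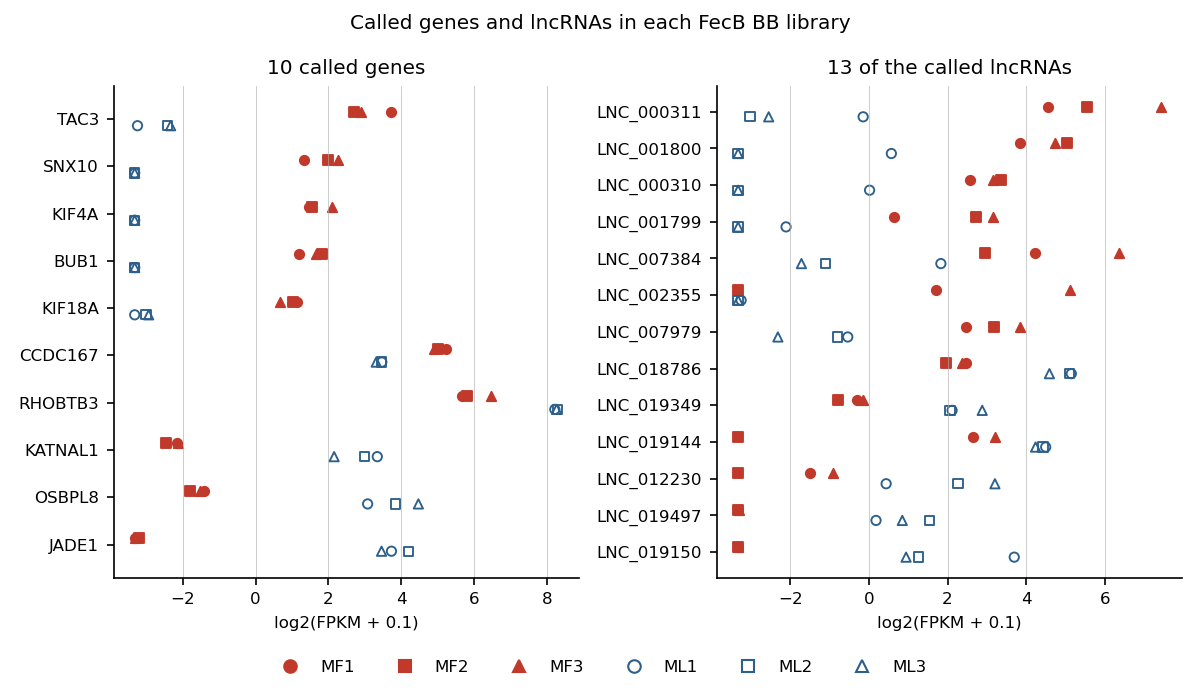
Log2(FPKM + 0.1) (x axis) of the 10 called genes (left) and of 13 of the 47 called lncRNAs (right) in each library, MF filled and ML open. RHOBTB3 and CCDC167 differ at high levels in all libraries, and for several other genes all values of one phase lie at the left edge, which stands for 0 FPKM.

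None of the next genes by p was called. ESM1, a proteoglycan released by endothelial cells, was at 36.8, 23.3 and 19.3 FPKM in MF and at 0.463, 0 and 0.412 in ML (log2 difference 6.38, limma adjusted p = 0.0633). PLAT, the tissue plasminogen activator, was at 154, 136 and 143 in MF and at 50.7, 50.2 and 34.3 in ML (limma adjusted p = 0.0633). Both were without overlap, but PLAT ranged from 54.1 to 178 in wL. RGS4, a brake on G protein signals, was at 29.1, 17.5 and 19.9 in MF and at 5.19, 5.09 and 5.45 in ML, and CNTNAP4, a cell adhesion protein, at 4.42, 4.72 and 6.56 in MF and 0.630, 0.724 and 0.423 in ML. CDO1, the enzyme that starts the breakdown of cysteine and was chosen after its values were seen, was at 445, 532 and 498 in MF and at 57.5, 23.8 and 12.0 in ML (log2 difference 4.26, limma adjusted p = 0.0689). HSPH1, a cytosolic heat shock protein, was at 121, 103 and 149 in MF and at 32.2, 15.7 and 30.9 in ML (limma adjusted p = 0.0792), yet ran from 1.72 to 163 within wF.

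In the other direction, KCNG1, a modifier subunit of potassium channels, was at 1.74, 2.39 and 2.21 FPKM in MF and at 15.7, 21.7 and 46.7 in ML (log2 difference -3.52, limma adjusted p = 0.0633). ZHX3, a zinc finger and homeobox repressor, was at 1.06, 0.877 and 1.53 in MF and at 5.53, 5.63 and 5.89 in ML. RASD1, a small GTPase induced by glucocorticoids, was at 1.86, 2.22 and 2.54 in MF and at 7.18, 8.49 and 9.31 in ML. HIF3A, a hypoxia factor that lowers the response of its family, was at 0.0520, 0.198 and 0 in MF and at 2.06, 2.57 and 4.796 in ML. SV2B, a synaptic vesicle protein, was at 0.0602, 0 and 0 in MF and at 1.74, 3.78 and 7.20 in ML. DMD (dystrophin) was at 26.2, 20.9 and 22.2 in MF and at 50.7, 60.7 and 50.2 in ML. For all of these the groups were apart, and ML1 lay on the side of ML2 and ML3. Dystrophin is a muscle protein, and its share from the muscle coat was not tested.

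Among 23 genes known to answer to estrogen or progesterone, 3 were apart and higher (13.0%, against 6.2% of all genes) and 6 apart and lower (26.1%, against 5.59%), with a median of -0.28. None was called, and 7 of the 23 had an unadjusted p under 0.05 (1 higher, 6 lower), as had 22.6% of all genes. AREG, an epidermal growth factor ligand induced by steroids, was at 0.937, 1.03 and 0.519 FPKM in MF and at 0.0337, 0 and 0 in ML (limma adjusted p = 0.0848). FST (follistatin), which binds activin, was at 0.469, 0.172 and 0.465 in MF and at 3.27, 10.3 and 12.4 in ML (log2 difference -4.10, limma adjusted p = 0.0848). KLF9, a factor that acts with the progesterone receptor, was at 4.49, 10.8 and 11.6 in MF and at 17.6, 18.6 and 23.6 in ML, and SGK1, a kinase induced by steroids, at 4.95, 4.33 and 4.17 in MF and 6.45, 22.6 and 21.2 in ML. All 4 were without overlap. PGR, the progesterone receptor, was at 120, 38.5 and 64.9 in MF and at 41.3, 41.6 and 72.5 in ML, and the groups overlapped (limma adjusted p = 0.579).

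Of 56 genes of growth factors and of BMP, activin and Wnt signals, 4 were apart and higher (7.14%, against 6.2% of all genes) and 9 apart and lower (16.1%, against 5.59%), with a median of -0.32. None was called, and 17 of the 56 had an unadjusted p under 0.05 (5 higher, 12 lower), against 22.6% of all genes. IGFBP2, which binds insulin-like growth factors, was at 207, 385 and 189 FPKM in MF and at 39.6, 13.9 and 3.76 in ML (limma adjusted p = 0.12). IGF2, one of those growth factors, was at 4.31, 1.34 and 9.64 in MF and at 22.6, 23.4 and 26.5 in ML (limma adjusted p = 0.133). Both stayed on the same side in ML1. DKK1, which blocks Wnt receptors, and RSPO3, which strengthens Wnt signals, were chosen after their values were seen. DKK1 was at 0.0539 to 0.177 in MF and at 0.444, 7.48 and 20.5 in ML. RSPO3 was at 1.08, 1.69 and 5.70 in MF and at 6.64, 13.0 and 32.4 in ML. For these, the distance from MF was greatest in ML3, the library with the most muscle RNA. BMPR1B, the gene that carries the FecB allele, was at 19.5, 17.0 and 14.2 in MF and at 18.4, 6.40 and 3.59 in ML (limma adjusted p = 0.283). ML1 lay within the MF range, and the abundance of BMPR1B does not check the genotype.

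Of 13 genes of the Hippo pathway, which restrains tissue growth through its end factors, 12 had a negative difference, with a median of -0.57. Only WWTR1, one of those factors, was apart, at 21.2, 27.1 and 30.9 FPKM in MF and 41.0, 55.6 and 69.5 in ML (limma adjusted p = 0.127), which is 7.69% of the list against 5.59% of all genes. None was called, and 6 of the 13 had an unadjusted p under 0.05, all lower, against 22.6% of all genes. Without MF3 3 were apart and lower (23.1%, against 9.35% of all genes), and without ML1 5 (38.5%, against 10.5%). The count was 0 without MF1 (against 6.21% of all genes) and 0 without ML3 (against 6.2%). Against ML1 alone the list median was -0.38. The list mean was 3.54 to 3.85 in MF and 4.06, 4.29 and 4.41 in ML1 to ML3. Of 32 genes of energy sensing by AMPK, 2 were apart and higher (6.25%, against 6.2% of all genes). Another 4 were apart and lower (12.5%, against 5.59%). None was called, and 10 of the 32 had an unadjusted p under 0.05, against 22.6% of all genes. FOXO3, a transcription factor of fasting and cell cycle arrest, was at 6.44, 6.55 and 9.47 in MF and at 21.7, 12.1 and 21.4 in ML. GYS1 (glycogen synthase) was at 3.46, 2.89 and 3.86 in MF and at 6.75, 7.47 and 10.3 in ML. SIRT1, a deacetylase of the same network, was at 7.40, 7.40 and 7.86 in MF and at 13.3, 12.6 and 12.7 in ML, a difference of -0.76 that was under the limit of 1 although the groups were far from overlap. These limma adjusted p values ran from 0.121 to 0.129.

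Of 30 genes of ion, water and solute transport, 7 were apart and higher in MF (23.3%, against 6.2% of all genes). Another 2 were apart and lower (6.67%, against 5.59%). None was called, and 8 of the 30 had an unadjusted p under 0.05, against 22.6% of all genes. Without ML3 4 were apart and higher (13.3%, against 6.04% of all genes), and without ML1 5 were apart and lower (16.7%, against 10.5%). SLC12A2, which loads epithelial cells with chloride for fluid secretion, was at 57.8, 56.0 and 41.0 FPKM in MF and at 22.3, 23.6 and 8.25 in ML (limma adjusted p = 0.137). AQP5, a water channel chosen after its values were seen, was at 220, 100 and 137 in MF and at 61.6, 24.7 and 0.520 in ML. SLC5A1, a sodium and glucose carrier, was at 3.98, 5.30 and 10.3 in MF and at 2.22, 2.86 and 0.395 in ML (limma adjusted p = 0.195). All 3 were without overlap, and ML3, which held little epithelial RNA, was the lowest for each.

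For the markers of ciliated cells, the median log2 difference was 2.31 over 42 genes with all 42 positive, but only 4 were apart (9.52%, against 6.2% of all genes). This count rested on ML1 and MF3: it was 33 without ML1 (78.6%, against 11.9% of all genes) and 19 without MF3 (45.2%, against 10.2%). Against ML1 alone the median was -0.11. CDC20B, which takes part in making many basal bodies in multiciliated cells, was an exception, at 13.1, 56.4 and 16.1 FPKM in MF and at 1.09, 0.502 and 0.117 in ML (log2 difference 5.42, limma adjusted p = 0.0848), low in ML1 too. For the secretory epithelium, 4 of 14 genes were apart and higher (28.6%), and the median was 1.38, but 0.10 with ML1 alone. The count was 9 without ML1 (64.3%, against 11.9% of all genes), 6 without MF2 (42.9%, against 6.82%) and 2 without ML3 (14.3%, against 6.04%). RARRES1, the most abundant of them, was at 5310, 10166 and 8117 in MF and at 1936, 274 and 70.1 in ML (limma adjusted p = 0.134). The most abundant mRNA transcript in MF, NM_001009779.1 of the locus LOC443344, was at 18916, 24018 and 30041 in MF and at 1338, 1.01 and 0.961 in ML (limma adjusted p = 0.195). Both were without overlap and had ML1 far above ML2 and ML3. Of the 16 smooth muscle genes 6 were apart and lower (37.5%) and 1 apart and higher (6.25%), with a median of -1.83 that was -0.44 with ML1 alone. Without ML1 14 were apart and lower (87.5%, against 10.5% of all genes), and without MF3 10 (62.5%, against 9.35%). MYLK, the kinase that starts contraction, was at 23.4, 11.9 and 37.9 in MF and at 74.9, 169 and 120 in ML (limma adjusted p = 0.12).

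UPK1B, a uroplakin of epithelial surfaces, was at 174, 169 and 124 FPKM in MF and at 21.3, 13.3 and 1.22 in ML (log2 difference 4.41, limma adjusted p = 0.125). Among 23 genes of prostaglandin, oxytocin and nitric oxide signals, 1 was apart and higher (4.35%, against 6.2% of all genes). Another 2 were apart and lower (8.70%, against 5.59%). Without ML1 these counts were 4 (17.4%, against 11.9% of all genes) and 7 (30.4%, against 10.5%). PLA2G4F, a phospholipase that frees arachidonic acid, was at 19.8, 11.4 and 7.87 in MF and at 4.98, 0.337 and 0.0340 in ML. CNR1, the cannabinoid receptor that in mice takes part in transport of embryos through the oviduct, was at 0.0545, 0.0828 and 0.123 in MF and at 0.535, 1.82 and 21.5 in ML. The values of both were most extreme in ML3. The lists of glycosylation, ABC transporters, tight junctions, extracellular matrix, complement and mucosal defence, immediate early and heat shock genes, leukocytes, fibroblasts, and red blood cells and mesothelium each had at most 4 genes apart in either direction, none of their genes was called, and between 1 and 8 genes of a list had an unadjusted p under 0.05. These lists held from 2 to 43 tested genes, so equal counts are not equal shares. The 2 tested genes of red blood cells and mesothelium were both apart, 1 in each direction. Of 22 immediate early and heat shock genes, 8 had an unadjusted p under 0.05, against 22.6% of all genes. The counts of these lists rested on single libraries too. Without ML1, 10 of 30 genes of the extracellular matrix (33.3%) and 8 of 15 of fibroblasts (53.3%) were apart and lower, against 10.5% of all genes. In complement and mucosal defence 10 of 43 were then apart and higher (23.3%, against 11.9%). Against ML1 alone these directions did not hold. The median log2 difference of the matrix list was -0.47 without ML1 and 0.25 against ML1 alone. For fibroblasts these medians were -1.08 and 0.07, and for complement and mucosal defence 0.28 and -0.05. Of 11 endothelial markers, 2 were apart and higher (18.2%, against 6.2% of all genes) and 1 apart and lower (9.09%, against 5.59%). None of the 11 was called, and 3 had an unadjusted p under 0.05 (1 higher, 2 lower), against 22.6% of all genes.

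Single mRNA transcripts were tested in the same way. Of 30945 transcripts, 27 were called (0.0873%), 20 higher (0.0646%) and 7 lower (0.0226%) in MF, and 4851 had an unadjusted p under 0.05. Apart and higher were 5.1% of the transcripts, and apart and lower 7.91%. The count was 3 without MF1, 3 without MF2, 0 without MF3, 227 without ML1, 4 without ML2, 51 without ML3, 0 with the smooth muscle term, and 0 with ML1 as the only luteal library. In 19 of the 27, every library of one phase was below 0.1 FPKM. Some of these were 1 form of a gene whose other form moved the opposite way. TMEM214, a membrane protein of the ER, was the clearest case. Its transcript XM_012166287.1 was at 28.0, 18.6 and 16.3 FPKM in MF and at 0 in ML (log2 change 7.68, limma adjusted p = 0.0165). Its transcript XM_012166296.2 was at 0.121, 0.1401 and 0.0466 in MF and at 11.9, 13.1 and 14.8 in ML (log2 change -6.07, limma adjusted p = 0.0165). The sum of both was 21.0 ± 6.24 (SD, n = 3) in MF and 13.3 ± 1.49 (SD, n = 3) in ML.

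PPP2R2A, a regulatory subunit of protein phosphatase 2A, showed the same exchange. Transcript XM_004004173.3 was at 6.66, 4.58 and 5.83 FPKM in MF and at 0 in ML (limma adjusted p = 0.0287), and XM_012118876.2 was at 0.402, 0.293 and 0.671 in MF and at 8.98, 8.78 and 9.97 in ML (limma adjusted p = 0.0386). RAN encodes the GTPase of nuclear transport. Its transcript XM_015101361.1 fell in MF, with 1.91, 1.42 and 1.41 in MF and 20.3, 49.6 and 24.9 in ML (limma adjusted p = 0.0386), while NM_001161876.1 was at 22.2, 9.32 and 16.6 in MF and at 1.02, 2.42 and 1.45 in ML (limma adjusted p = 0.0761). KATNAL1, a microtubule-severing enzyme, had a gene sum of 0.126, 0.0807 and 0.129 in MF and of 10.04, 7.87 and 4.36 in ML, and was called lower (limma adjusted p = 0.0165). Its unpaired transcript XM_015098150.1, which carries this name in the study's tables, ran the other way, at 3.87, 3.35 and 2.48 in MF and at 0.315, 0.294 and 0.107 in ML. With it and the other transcripts named after the gene, the KATNAL1 sum was 4.33 ± 1.09 (SD, n = 3) in MF and 7.58 ± 2.95 (SD, n = 3) in ML. Opposed forms were counted only where each had a mean of at least 1 FPKM in its higher phase. With transcripts named in the study's tables included, 26 genes had 1 form apart and higher and another apart and lower in MF. In 14 of these every tested transcript was paired, and in 24 of the 26 the summed log2 difference was under 1 in size. For scale, 2214 genes had at least 2 tested paired transcripts, with no such limit on the level. Of all tested mRNA transcripts 5.1% were apart and higher and 7.91% apart and lower. Whether opposed forms exceed what these shares give was not tested.

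In the ++ ewes the same pairs of forms were seen, but the main form did not follow the phase for TMEM214 and PPP2R2A. XM_012166287.1 of TMEM214 was the main form in wF1 and wF2 and in all 3 wL libraries, and XM_012166296.2 in wF3. For PPP2R2A, XM_012118876.2 was the main form in wF1, wF3, wL1 and wL2, and XM_004004173.3 in wF2 and wL3. For RAN, NM_001161876.1 was the main form in all 3 wF libraries and in wL1, and XM_015101361.1 in wL2 and wL3. FPKM at the transcript level depend on how the assembler shares reads among overlapping forms, and the part of that step was not tested.

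**Figure D5:**
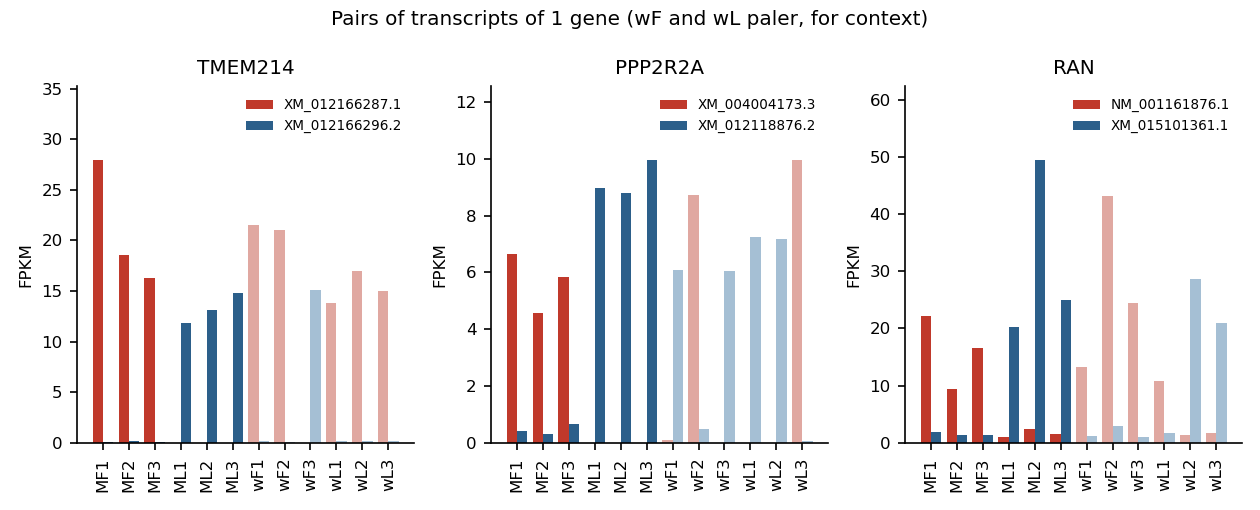
FPKM (y axis, from 0) of 2 transcripts of TMEM214, PPP2R2A and RAN in each library (x axis), with wF and wL in paler colours. In MF and ML the main form changes with the phase, while in wF or wL it also changes between ewes of 1 phase.

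Among called transcripts with more modest contrasts, MRPS10 XM_012100670.2, of the mitochondrial ribosome, was at 13.3, 12.1 and 15.3 FPKM in MF and at 1.205, 1.35 and 1.48 in ML, a 10.1-fold difference of means (limma adjusted p = 0.0287). It was at 13.1 to 15.8 in wF and at 2.69 to 10.7 in wL. NBL1 XR_001434194.1, a non-coding form, was listed at 0 in MF, against 17.1, 51.8 and 43.8 in ML (limma adjusted p = 0.0165). USO1, a tether of vesicles on their way from the ER to the Golgi, had its transcript XM_012180179.1 at 26.3, 15.7 and 7.36 in MF and at 0 in ML (limma adjusted p = 0.0287).

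LncRNAs are long RNAs with no recognized protein. Of 15755 tested, 47 were called (0.298%), 24 higher (0.152%) and 23 lower (0.146%) in MF, and 1115 had an unadjusted p under 0.05 (7.08%). The count was 31 without MF1, 42 without MF2, 48 without MF3, 21 without ML1, 41 without ML2, 14 without ML3, and 0 with ML1 as the only luteal library. In 4 of the 47, among them LNC_002355, the libraries were not apart. Over all tested lncRNAs, 10.4% were apart, 641 of them higher (4.07%) and 1003 lower (6.37%). The sequences that follow are the first 240 bases of 3 called lncRNAs, 2 of them higher and 1 lower in MF. They are shown because their sequences were given with the paper. They are printed 5′ to 3′ as given there. Capitals mark the longest reading frame from ATG to a stop codon inside the printed stretch.
LNC_000311: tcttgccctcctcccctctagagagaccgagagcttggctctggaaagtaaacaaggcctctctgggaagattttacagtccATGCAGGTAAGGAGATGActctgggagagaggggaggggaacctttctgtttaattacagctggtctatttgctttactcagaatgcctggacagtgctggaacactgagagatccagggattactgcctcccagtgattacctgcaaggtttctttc
LNC_007979: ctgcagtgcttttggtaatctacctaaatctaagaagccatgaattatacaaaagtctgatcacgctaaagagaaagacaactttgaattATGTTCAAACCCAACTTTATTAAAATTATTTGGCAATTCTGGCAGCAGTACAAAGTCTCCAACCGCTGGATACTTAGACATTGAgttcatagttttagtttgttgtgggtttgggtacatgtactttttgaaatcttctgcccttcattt
LNC_019497: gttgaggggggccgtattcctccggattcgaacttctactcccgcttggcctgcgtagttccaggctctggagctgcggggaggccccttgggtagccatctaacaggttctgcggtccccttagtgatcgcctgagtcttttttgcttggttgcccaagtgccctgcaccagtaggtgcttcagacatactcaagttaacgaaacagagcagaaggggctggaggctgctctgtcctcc
The longest frame had 5 codons before the stop in LNC_000311 and 27 in LNC_007979, and none was found in this stretch of LNC_019497. The share of G and C over the 399 bases held was 51.4% in LNC_000311, 31.8% in LNC_007979 and 57.1% in LNC_019497.

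LNC_000311 had the smallest p of all lncRNAs. It was at 23.3, 46.2 and 171 FPKM in MF and at 0.805, 0.0236 and 0.0714 in ML (log2 change 7.74 ± 0.63 SE, limma adjusted p = 9.32e-11). The MF values differed among themselves by more than the ML values, yet the groups were far apart. In the ++ ewes it ran from 0.0410 to 75.1 in wF. LNC_000310, the next lower number, was at 5.83, 10.1 and 8.79 in MF and at 0.914, 0 and 0 in ML (limma adjusted p = 9.76e-06). The pair LNC_001799 and LNC_001800 was called together as well. LNC_001800 was at 14.2, 32.6 and 26.4 in MF and at 1.39, 0 and 0 in ML, and LNC_001799 at 1.44, 6.47 and 8.77 in MF and 0.133, 0 and 0 in ML. Consecutive numbers occurred in 4 pairs of called lncRNAs, and in each pair both went the same way. Their positions in the genome were not used here.

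LNC_007979 was at 5.42, 8.97 and 14.2 FPKM in MF and at 0.590, 0.474 and 0.102 in ML (log2 change 4.38, limma adjusted p = 1.24e-05). It was one of the few with a narrow range in the other genotype, at 6.80 to 8.18 in wF and 1.40 to 4.35 in wL. LNC_007384 was at 18.5, 7.65 and 81.6 in MF and at 3.46, 0.368 and 0.205 in ML. LNC_002355 was at 3.17, 0 and 34.6 in MF and at 0.00545, 0 and 0 in ML (limma adjusted p = 0.0482), so MF2 overlapped ML.

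LNC_019497 and LNC_018786 fell in MF. LNC_019497 was at 0.000574, 0 and 0.00145 FPKM in MF and at 1.04, 2.80 and 1.70 in ML (log2 change -4.17, limma adjusted p = 0.00138). LNC_018786 was at 5.49, 3.80 and 5.05 in MF and at 35.3, 34.3 and 24.0 in ML, 6.53-fold higher in the mean of ML (log2 change -2.68 ± 0.47 SE, limma adjusted p = 0.00148). LNC_019150 was listed at 0 in MF, against 12.9, 2.31 and 1.83 in ML, and LNC_012230 at 0.252, 0 and 0.434 in MF and 1.26, 4.71 and 9.12 in ML. The pair LNC_019143 and LNC_019144 was also lower, and LNC_019144 was at 6.13, 0 and 9.08 in MF and at 22.4, 21.5 and 18.8 in ML (limma adjusted p = 0.0425). The most abundant lncRNA, LNC_006353, was at 5206, 6468 and 15448 in MF and at 23439, 10456 and 16817 in ML, and the groups overlapped (log2 difference -0.995, limma adjusted p = 0.846). LNC_016628 reached 647 in MF3 alone, with 0 and 1.39 in the other MF libraries and 0 in ML.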

How the data were processed

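RNA of whole isthmus tissue was sequenced after NEBNext Ultra library preparation, and whether counting used strand is not given in the sources used here. Per the study's methods and the submitters' notes, the authors trimmed reads with fastp, mapped them to Oar_v3.1 with HISAT2 and assembled and measured transcripts with StringTie. The deposited values are FPKM per transcript, and the authors' own fold changes and p-values were not used. Of 43674 mRNA transcripts, 15202 (34.8%, holding 67.4% of the mean mRNA FPKM) were paired by accession, mostly without version, with 10771 gene symbols of RefSeq (assembly ARS-UI_Ramb_v3.0), from which no coordinates were used. A further 596 were named through the study's tables. Gene values are sums over paired transcripts, and 71.6% of tested genes rest on 1, so a sum of 0 does not show that a gene was silent.

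Features with a mean of at least 0.1 FPKM over the 6 libraries were fitted as log2(FPKM + 0.1) with limma 3.58.1 in R 4.3.3 (group means, trend, p-values adjusted after Benjamini and Hochberg). Log2 changes are on this scale, which understates changes of low values. Library medians were compared by exact permutation. Tables and permutations came from pandas 2.3.3 and numpy 2.4.6 and plots from matplotlib 3.10.9 (all under Python 3.11.15), and the fit was checked on simulated data. Nothing in the labels says that libraries of a group are from separate flocks or days, and p-values measure only the spread between these samples.

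Groups followed the labels. The comparison, its members and gene lists were chosen with earlier results of these data known. Named features were the called genes (at most 10 per direction), then up to 10 per direction with the smallest p among genes apart with a mean of at least 1 FPKM in the higher group, up to 4 per list, up to 8 mRNA and 5 lncRNA transcripts per direction, the 5 most abundant of each kind, and features that the study discusses. Of these, the text gives those that describe a result. TOP2A, CDK1, MAD2L1, MCM3, MCM6, HSPA5, CALR, CDO1, RSPO3, DKK1, AQP5, HOXA10, TACR1, the ciliated markers at 0, LNC_019143, LNC_019144 and the transcripts SDF2L1, RAN NM_001161876.1, KATNAL1 and PRC1 were chosen after their values were seen. Alternatives were another added value, other filters, quantile normalization, equal sums, a fit over 12 libraries, a replicate block, a smooth muscle covariate, no trend, and leaving out libraries. LncRNA sequences are from the study's supplementary sequence table.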

Additional observations from a re-analysis of the deposited data

How the results depend on the processing

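The 10 called genes, 27 called mRNA transcripts and 47 called lncRNAs varied strongly with the processing. With an added value of 1 the counts were 24, 10 and 6, with no filter 14, 5 and 21, and with a mean of at least 1 FPKM 2, 11 and 0. Quantile normalization gave 11, 30 and 29, equal sums 9, 29 and 53, a shared spread over 12 libraries 150, 111 and 3, a smooth muscle covariate 0, 0 and 41, and limma without a trend 17, 172 and 6. With ML1 as the only luteal library, assumed to vary like MF, they were 49, 0 and 0. Leaving out 1 replicate gave 0 to 175 genes, 0 to 227 mRNA transcripts and 14 to 48 lncRNAs. All 10 called genes were among the 175 without ML replicate 1 and among the 58 without ML replicate 3. Equal sums turned the split of called mRNA transcripts from 20 higher and 7 lower to 17 and 12, and of lncRNAs from 24 and 23 to 21 and 32. The cause of these changes was not tested.

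The replicate numbers did not pair the samples: deviations of same-numbered libraries correlated at 0.0565, 0.00619 and 0.151. With the number as a replicate block the counts were 0 genes, 0 mRNA transcripts and 111 lncRNAs.

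Genes apart numbered 1023, but 675 with an added value of 1, and 1062 to 1944 without 1 replicate. Chosen after seeing the data, the same count against ML1 alone was 1501. The cell cycle count of 28 was between 21 (equal sums) and 35 (ML1 alone) over 10 alternatives and 27 to 34 without 1 replicate. The ER count of 15 was between 9 and 18, with 9 after equal sums, 10 after quantile normalization and 9 to 18 without 1 replicate. Over the same alternatives, the share of all genes apart and higher in MF ran from 3.47% (equal sums) to 11.9% (without ML replicate 1). These alternatives, and those of the other lists, were also chosen after seeing the data. The lncRNA median difference of -0.0113 was 0.0109 for transcripts above 1 FPKM. Of 32 called features named here, 21 lost the call without MF replicate 1, 21 without MF replicate 2, 19 without MF replicate 3, 3 without ML replicate 1, 21 without ML replicate 2, 9 without ML replicate 3 and 26 with ML1 alone, and none changed direction. Of 89 named features, 4 changed sign under some setting. HOXA9 was at 0.060 on the log2 scale with the muscle covariate and 0.13 with ML1 alone, HOXA10 at 0.31 with ML1 alone, and BMPR1B at -0.24 and -0.13 under the same settings. MCM6, near 0, was at 0.20, 0.17, 0.02 (without MF replicate 2) and 0.064 (without ML replicate 3), and its range without 1 replicate was -0.12 to 0.064. Depth is unknown, so values near 0 FPKM cannot be given a detection limit.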
